A study of Rattus norvegicus with 23 samples.

Results

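The genes described here are the haemoglobin chains and 3 further genes of red cells, measured in rat heart muscle after an infarct with or without an implanted device. They were chosen by symbol: Hba2 and Hba-a1 (alpha-globin), Hbb, Hbb-b1 and Hbb-bs (beta-globin), Alas2, Slc4a1 and Bpgm, of which 7 of the 8 symbols were rows of the deposited tables and Hbb-bs was not. These 7 were among 10723 genes with a value per library at 12 weeks, and among 11283 genes in each of the authors' tables of comparisons. The choice was made with the genes' own differences between the groups at 12 weeks known, so their values there are a description and carry no test. Another 3 globin rows were set beside them: Hba1, LOC689064 and LOC100134871, and the RefSeq gene identifiers in the LOC names belong to Hbb-bs and to Hbbl1.

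The groups were Sprague-Dawley rats that had the left coronary artery ligated through the chest and then had a TRD device implanted in a second operation (MI+TRD), and rats that had the ligation alone (MI). At 12 weeks there were 6 libraries of each, and at 6 weeks 5 of MI+TRD and 6 of MI, in polyadenylated RNA of snap-frozen myocardium. Every group therefore carried an infarct, and the labels name no age, sham operation or further detail of the device. The question set by the design was how gene expression in the infarcted heart differed with the device.

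Haemoglobin is a tetramer of alpha and beta chains, each holding a haem group that binds oxygen. The alpha genes and the beta genes lie in separate clusters of near-identical copies, and their messenger RNA is made in red cell precursors and remains in reticulocytes, the youngest red cells in blood. Alas2 is the red cell form of the enzyme that starts haem synthesis, Slc4a1 is band 3, the anion exchanger and main membrane protein of red cells, and Bpgm makes 2,3-bisphosphoglycerate, which lowers the affinity of haemoglobin for oxygen. In bulk tissue such as a piece of heart, fewer cells of a type and less RNA per cell cannot be told apart.

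The promoters of the globin genes are shown to let the copies within each cluster be compared, since several of these rows varied together between libraries. The 150 bases before the start of each gene are given 5′ to 3′ from RefSeq, build GRCr8, which is not the build of the deposited coordinates. Of the 8 symbols, 6 matched a promoter under that symbol; Hba-a2 and Hba-a3, the other alpha genes of that build, are given for comparison. Capitals mark 4 short motifs on either strand: the core of the CACCC box (CACACCC), the box named CCAAT, a run like the TATA box (ATAAA) and the core of the GATA site (GATAA), and no base belonged to more than 1 of them.
Hbb, chr1:167663722-167663871, minus strand: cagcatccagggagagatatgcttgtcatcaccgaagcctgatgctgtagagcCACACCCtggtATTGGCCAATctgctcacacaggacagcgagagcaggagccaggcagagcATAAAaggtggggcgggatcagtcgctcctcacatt
Hbb-b1, chr1:167643521-167643670, minus strand: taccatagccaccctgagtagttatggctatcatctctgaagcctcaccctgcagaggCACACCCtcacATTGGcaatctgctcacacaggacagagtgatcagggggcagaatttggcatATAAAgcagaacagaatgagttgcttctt
Hbb-bs, chr1:167631631-167631780, minus strand: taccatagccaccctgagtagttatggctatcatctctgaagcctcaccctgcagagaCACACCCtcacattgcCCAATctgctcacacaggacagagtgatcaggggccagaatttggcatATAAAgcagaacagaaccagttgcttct
Hba-a1, chr10:15842581-15842730, minus strand: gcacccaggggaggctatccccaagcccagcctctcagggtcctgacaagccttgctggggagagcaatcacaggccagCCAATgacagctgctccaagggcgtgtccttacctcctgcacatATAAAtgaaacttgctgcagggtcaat
Hba-a2, chr10:15829139-15829288, minus strand: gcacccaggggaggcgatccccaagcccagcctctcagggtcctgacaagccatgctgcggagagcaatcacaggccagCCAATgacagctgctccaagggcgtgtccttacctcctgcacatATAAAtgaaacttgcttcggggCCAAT
Hba-a3, chr10:15816944-15817093, minus strand: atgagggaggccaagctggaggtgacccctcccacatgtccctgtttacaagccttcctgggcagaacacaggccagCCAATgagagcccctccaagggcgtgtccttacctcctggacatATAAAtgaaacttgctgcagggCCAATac
Every one of the 3 beta promoters held CACACCC, at 97 bases before the start in Hbb and at 92 in Hbb-b1 and Hbb-bs, and these letters were in none of the 3 alpha windows. CACACCC was found in 3.90% of 33469 promoter windows of the same length. CCAAT stood in all 6 windows and in 23.5% of all promoters, and ATAAA in all 6, between 27 and 36 bases before the start, and in 25.7% of all promoters. GATAA was in none of the 6 windows and in 14.2% of all promoters. In pairwise alignments, Hbb-b1 and Hbb-bs were identical at 95.4% of positions and Hba-a1 and Hba-a2 at 96.0%. Hbb differed more from its neighbours, with 68.1% identity to Hbb-b1 and 68.4% to Hbb-bs. A motif match is a description of these letters and not a measured site.

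The recovered reads numbered 7197118 to 10304156 per library at 12 weeks, and all 7 genes passed the filter on low values. MI+TRD replicates 1, 4 and 5 stood apart from the other libraries: 119, 114 and 178 genes had 0 reads there, against 13 to 46 in MI+TRD replicates 2, 3 and 6 and 28 to 75 in MI libraries. In the same 3 libraries the 353 genes spanning at most 2000 bases were low, with a median log2 deviation from their own means of −0.50, −0.33 and −0.33, against −0.01 to 0.19 in MI+TRD replicates 2, 3 and 6 and −0.01 to 0.32 in MI libraries. Of 12 heart muscle markers 11 were in the table and 10 had reads in every library, while 4 of 8 skeletal muscle markers were present. Of those 4, Ckm and Acta1 were at 359.9 normalized counts or more in every library, and Myh2 and Tnnt3 at 2.59 or less. The atrial marker Myl7 ranged from 2.32 to 3170 in MI and from 0.0999 to 614 in MI+TRD. Presence of the markers therefore does not show that the tissue pieces were alike. Over all genes tested the median log2 difference of MI+TRD minus MI was −0.14. Differences of the 7 genes are therefore also given relative to that median. Those of sums, other genes and lists are not, unless stated, so −0.14 is the value to set beside them.

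Hba2 varied more than any of the other 6 genes, and it was high in MI+TRD replicates 1, 4 and 5. The Hba2 row is an alpha-globin gene annotated on chromosome 10 of rn6, 15577166 to 15603650, minus strand. It had 88.3, 0.498, 2.71, 234, 465 and 1.43 normalized counts in MI+TRD libraries 1 to 6, against 25.7, 3.40, 1.73, 9.997, 12.8 and 0.809 in MI libraries 1 to 6. Of the 6 MI+TRD libraries, 3 lay above the highest MI library and 1 below the lowest, so the groups overlapped. These values rest on between 11 and 11843 recovered reads, and the highest library was 933 times the lowest. The mean was 131.9 ± 186.5 in MI+TRD and 9.07 ± 9.43 in MI (SD, n = 6 each). The log2 difference of MI+TRD minus MI was 1.73 (SE 1.46), or 1.87 relative to all genes. On recovered reads the relative difference was 4.02 with edgeR and 4.002 with DESeq2, and with limma's sample weights it was 1.16. Without MI+TRD replicates 1, 4 and 5 the relative difference turned to −1.69, so its sign rested on those libraries. With MI+TRD replicate 5 alone left out it was 0.95, and with MI+TRD replicate 2 alone left out it was 2.80.

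**Figure D1:**
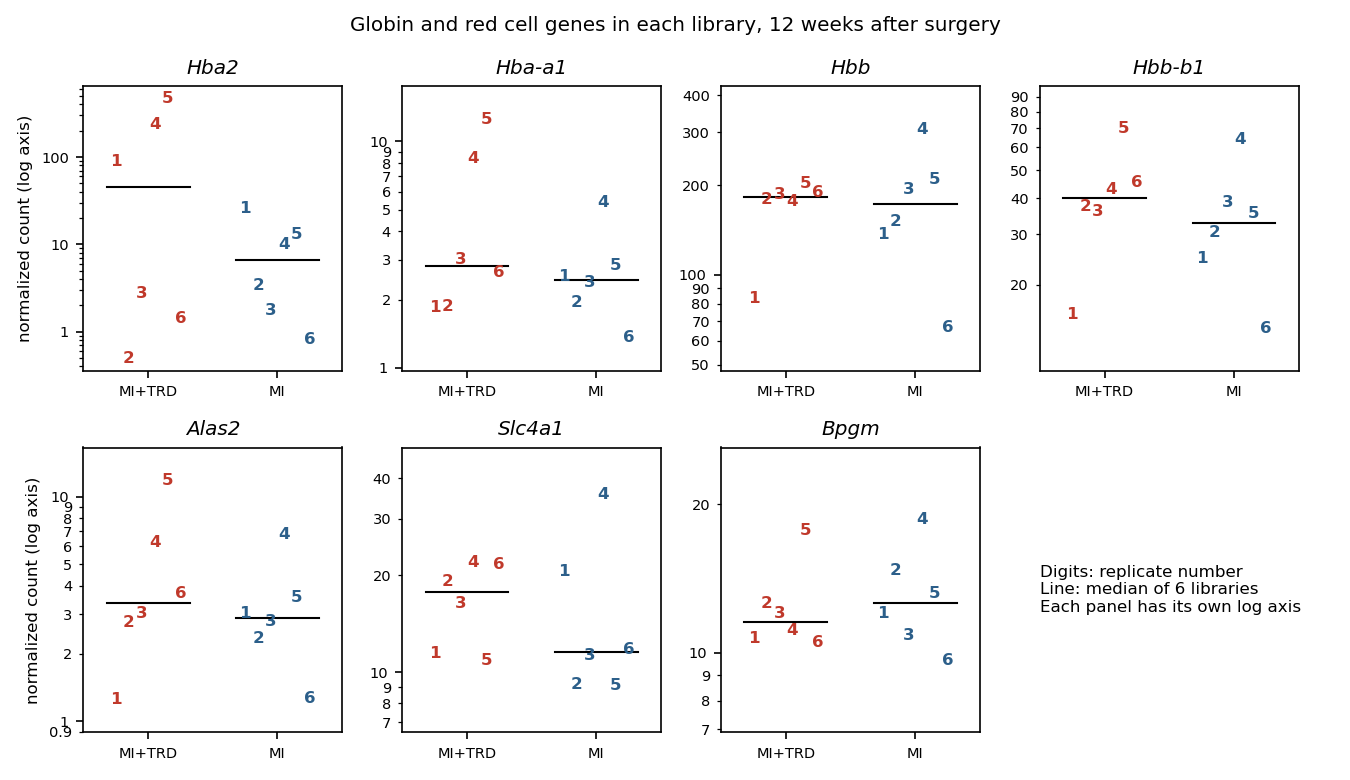
Normalized count on log axes (1 panel per gene, each with its own scale) of 7 genes in 12 libraries at 12 weeks, with MI+TRD left of MI; points are libraries. Hba2 ranges from 0.498 to 465 in MI+TRD and from 0.809 to 25.7 in MI, while Bpgm stays between 9.66 and 18.6 over all libraries.

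The position of the Hba2 row bears on how its reads were assigned. Its annotated span of 26485 bases holds the whole of the Hba-a1 row (15577249 to 15577978) and the whole of the Hba1 row (15602794 to 15603650), all on the minus strand. The rows share 730 and 857 bases, so a read from either copy could have been counted in more than 1 row or divided between them, and the counting rule is not given in the sources used here. The symbols are ambiguous as well: Hba2 is a current symbol of 0 RefSeq genes and a synonym of 1, and Hba1 is a synonym of 2. The 3 alpha rows are therefore uncertain one by one, and their sum and proportions are given next.

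Hba1, another alpha row, did not follow Hba2. It had a lowest value of 109, a median of 348 and a highest of 466.0 normalized counts in MI+TRD, and 118, 273 and 509 in MI. Its lowest value of all was in MI+TRD replicate 1, where Hba2 was among the 3 highest. Hba2 made up 44.4%, 0.144%, 0.662%, 47.1%, 56.0% and 0.304% of the 3 alpha rows in MI+TRD libraries 1 to 6, against 10.4%, 1.43%, 0.543%, 1.91%, 3.35% and 0.673% in MI libraries 1 to 6. In MI+TRD replicates 1, 4 and 5 the Hba2 row thus held between 44.4% and 56.0% of the counts of the alpha rows, and at most 10.4% in any other library.

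Hba-a1, the short row inside the Hba2 span, was low throughout and rested on 29 to 319 reads. Its lowest, median and highest values were 1.85, 2.82 and 12.6 normalized counts in MI+TRD and 1.35, 2.45 and 5.35 in MI. MI+TRD replicates 4 and 5 were the 2 libraries above every MI library, at 8.44 and 12.6, while MI+TRD replicate 1 was at 1.85. The mean was 5.06 ± 4.43 in MI+TRD and 2.73 ± 1.38 in MI (SD, n = 6 each), a log2 difference of 0.57 (SE 0.44), or 0.71 relative to all genes. Set against Hba1, Hba-a1 stood at 1.70, 0.544, 0.748, 3.32, 3.56 and 0.564 counts per 100 in MI+TRD libraries 1 to 6, and between 0.754 and 1.15 in MI libraries. The 3 highest of these proportions were again in MI+TRD replicates 1, 4 and 5.

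**Figure D2:**
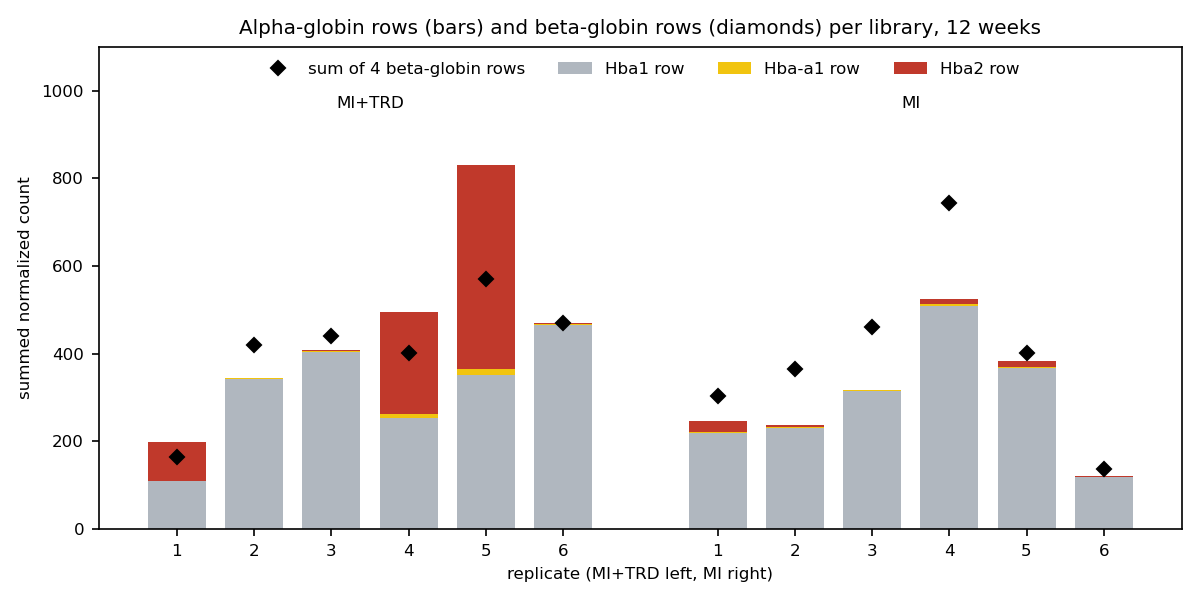
Summed normalized count of the 3 alpha-globin rows (stacked bars) and of the 4 beta-globin rows (diamonds) in each library at 12 weeks, MI+TRD on the left and MI on the right. The Hba2 share of the bar is large in MI+TRD replicates 1, 4 and 5, where the bar also rises above the diamond.

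Summed over the 3 rows, alpha-globin reached 829.9 normalized counts in MI+TRD replicate 5, the highest library. The mean sum was 458 ± 211 in MI+TRD and 305 ± 139 in MI (SD, n = 6 each), and the ranges overlapped, 199 to 829.9 and 120.2 to 525. The ratio of alpha to beta rows was 1.22, 0.822, 0.929, 1.24, 1.45 and 0.999 in MI+TRD libraries 1 to 6, against 0.811, 0.651, 0.690, 0.705, 0.954 and 0.876 in MI libraries. MI+TRD replicates 1, 4 and 5 were the 3 libraries with a ratio above 1. With the Hba2 row left out, the ratio averaged 0.785 ± 0.152 in MI+TRD and 0.756 ± 0.113 in MI, and in MI+TRD replicates 1, 4 and 5 it was 0.676, 0.655 and 0.639. Those 3 values lay below MI+TRD replicates 2, 3 and 6, whose ratios were between 0.821 and 0.996. The levels are not divided by transcript length, so a ratio compares libraries and not the amounts of the chains.

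The group means of the beta-globin rows lay closer together than the libraries within a group. Hbb, an adult beta chain, is annotated on chromosome 1, 168971269 to 168972681, minus strand. Its lowest, median and highest values were 83.2, 183 and 202 normalized counts in MI+TRD and 66.7, 172 and 307 in MI. The mean was 169 ± 43.1 in MI+TRD and 177 ± 80.7 in MI (SD, n = 6 each), with a log2 difference of 0.02 (SE 0.31), or 0.16 relative to all genes. No MI+TRD library lay outside the MI range. Leaving out 1 library at a time moved the relative difference between −0.06 and 0.35, so its sign was not settled by these libraries.

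Hbb-b1, another adult beta gene (chromosome 1, 168945567 to 168953028, plus strand in the deposited table), followed Hbb. Its lowest, median and highest values were 15.7, 40.1 and 70.1 normalized counts in MI+TRD and 14.1, 32.9 and 64.2 in MI. Only MI+TRD replicate 5 exceeded all MI libraries. The mean was 41.2 ± 17.6 in MI+TRD and 34.5 ± 16.9 in MI (SD, n = 6 each), a log2 difference of 0.27 (SE 0.34), or 0.41 relative to all genes. In the RefSeq build all 3 beta promoters printed above lie on the minus strand, so the strand of this row differs between the builds.

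The LOC689064 row, whose identifier is that of Hbb-bs, ranged from 20.4 to 90.0 normalized counts in MI+TRD and from 13.9 to 64.7 in MI. LOC100134871 ranged from 44.0 to 210.0 in MI+TRD and from 42.5 to 309 in MI. For both rows the highest MI+TRD library was replicate 5 and the lowest was replicate 1. As a proportion of Hbb, Hbb-b1 stood at 18.9, 20.9, 19.2, 24.3, 34.8 and 23.9 counts per 100 in MI+TRD libraries 1 to 6, against 16.9 to 21.1 in MI. LOC689064 stood at 24.6, 18.8, 21.5, 31.6, 44.6 and 22.6 per 100 of Hbb in MI+TRD, against 17.4 to 24.7 in MI. LOC100134871 stood at 52.9, 95.2, 95.5, 72.3, 104.2 and 102.3 per 100 of Hbb in MI+TRD, against 58.2 to 100.6 in MI. Relative to Hbb, Hbb-b1 was thus above every MI library in MI+TRD replicates 4, 5 and 6, and LOC689064 in replicates 4 and 5. Both were within the MI range in replicate 1. LOC100134871 was above the MI range in replicates 5 and 6, within it in replicate 4 and below it in replicate 1. Near-identical copies may exchange reads, so these proportions are uncertain.

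Because the division of reads among copies is uncertain, the 4 chosen globin genes were also summed. That sum leaves out Hba1, LOC689064 and LOC100134871, so it still depends in part on the division. The sums were 189, 219, 228, 460.5, 749 and 238 normalized counts in MI+TRD libraries 1 to 6, against 189, 187, 236, 386, 260 and 82.9 in MI libraries 1 to 6. In these sums of 4 genes, MI+TRD replicates 4 and 5 were above every MI library and replicate 1 was not. On the deposited scale the log2 difference of the sums was 0.58, smaller than the spread between libraries of a group, which was 0.76. The difference was 0.17 without MI+TRD replicates 1, 4 and 5. With other scalings it was 0.74 by median ratios, 0.77 by quantile normalization and 0.82 with equal column totals. Summed over all 7 globin rows, MI+TRD replicate 4 was at 897 normalized counts and replicate 5 at 1402, against at most 1269 in MI. Only replicate 5 was thus above every MI library, and the log2 difference was 0.35. All 7 globin rows together took 0.0981% to 0.351% of a library's normalized counts in MI+TRD and 0.0642% to 0.235% in MI.

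Alas2, which makes 5-aminolevulinate for haem in red cell precursors, lies on chromosome X, 23167576 to 23187357, minus strand. Its lowest, median and highest values were 1.25, 3.36 and 11.8 normalized counts in MI+TRD and 1.26, 2.89 and 6.76 in MI. MI+TRD held both extremes of the 12 libraries, replicate 5 at 11.8 and replicate 1 at 1.25. The mean was 4.80 ± 3.81 in MI+TRD and 3.28 ± 1.87 in MI (SD, n = 6 each), a log2 difference of 0.36 (SE 0.44), or 0.50 relative to all genes. Without MI+TRD replicates 1, 4 and 5 the relative difference was 0.24. Alas2 rested on 24 to 300 reads per library.

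Alas2 was also set against the beta chains, whose haem it helps to supply. It stood at 7.65, 6.56, 6.85, 15.7, 20.7 and 7.86 counts per 1000 of the 4 beta rows in MI+TRD libraries 1 to 6, and between 6.02 and 9.87 in MI. MI+TRD replicates 4 and 5 were above every other library in this proportion. In MI+TRD replicate 1, where Hba2 was also high, the proportion lay within the MI range.

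Slc4a1 (chromosome 10, 90296149 to 90312397, minus strand) did not separate the groups. Its lowest, median and highest values were 10.9, 17.8 and 21.9 normalized counts in MI+TRD and 9.11, 11.5 and 35.6 in MI. The mean was 16.9 ± 4.88 in MI+TRD and 16.2 ± 10.4 in MI (SD, n = 6 each), a log2 difference of 0.19 (SE 0.31), or 0.34 relative to all genes. In MI replicate 5 it was lowest, although Hbb there was second highest of the 12 libraries. MI+TRD replicate 5, highest for Hba2, ranked 10 of 12 for Slc4a1.

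Bpgm (chromosome 4, 61912210 to 61940698, plus strand) was the steadiest of the 7, with 1.92 times between the highest and lowest library. Its lowest, median and highest values were 10.5, 11.6 and 17.7 normalized counts in MI+TRD and 9.66, 12.6 and 18.6 in MI. The mean was 12.4 ± 2.69 in MI+TRD and 13.2 ± 3.18 in MI (SD, n = 6 each), a log2 difference of −0.07 (SE 0.17), or 0.07 relative to all genes. The sign of that relative difference turned when single libraries were left out, with a range of −0.02 to 0.14.

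Across all genes, limma with Benjamini-Hochberg adjustment called 0 of 10655 genes higher (0%) and 0 lower (0%) in MI+TRD at 12 weeks, and none of the 7 was called. At an unadjusted p under 0.05, limma gave 298 genes higher (2.8%) and 2033 lower (19.1%), with 0 of the 7 among them. On recovered reads edgeR called 0 genes (0% each way) and DESeq2 18, of which 11 were higher (0.103%) and 7 lower (0.0657%), and neither tool called any of the 7. At an unadjusted p under 0.05, 2 of the 7 passed with edgeR, beside 8% of all genes higher and 6.98% lower, and 2 of the 7 passed with DESeq2, beside 8.88% higher and 7.17% lower. The MI+TRD libraries lay above all MI libraries for 12 of all genes tested (0.113%), which none of the 7 did. All 7 lay above the median of all genes, with a median log2 difference of 0.27, against −0.14 over all genes tested. Those counts describe genes chosen with this contrast known and are no test of them. Which 2 passed with edgeR or with DESeq2, and in which direction, is not reported here, so their count cannot be set beside either share alone.

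The globin and Alas2 rows other than Hba2 moved together from library to library. Over the 12 libraries, the 21 pairs among Hba-a1, Hbb, Hbb-b1, Alas2, Hba1, LOC689064 and LOC100134871 had Spearman's rho between 0.61 and 0.95, with a median of 0.78. The highest was between Hba-a1 and Alas2, at 0.95, and Hbb and Hba1 were at 0.87. Hba2 had rho between −0.15 and 0.57 with those rows, with a median of 0.17. Slc4a1 lay between −0.02 and 0.33 with them and Bpgm between 0.43 and 0.59. These correlations are a description over 12 libraries that share depth, scaling and partly reads between copies. MI replicate 6 was the lowest or next to lowest library for each of these 10 rows except Slc4a1.

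**Figure D3:**
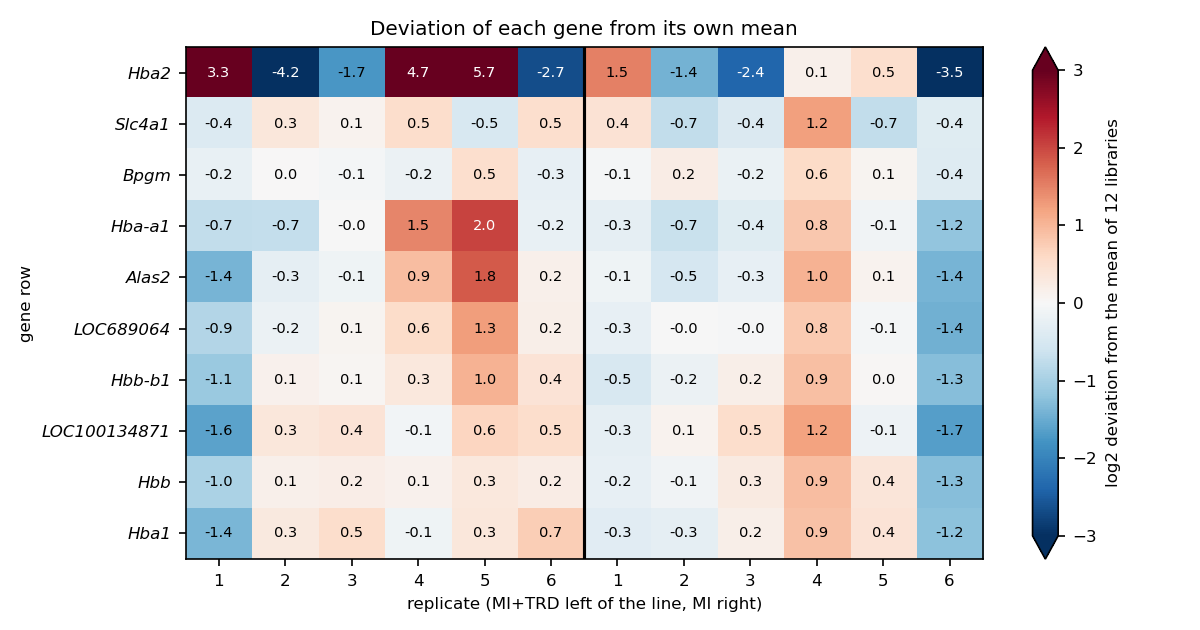
Log2 deviation of each of 10 gene rows from its own mean over the 12 libraries at 12 weeks, with MI+TRD left of the line and MI right. In MI+TRD replicate 1 the Hba2 row is above its mean while the other globin rows are below theirs.

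Other genes followed Hba2 more closely than any globin did. The 10 genes with the highest rho to Hba2 over the 12 libraries were Ago4, Rgs5, Lsm12, Ak3, Pacs1, Acer2, Cd93, Ube2r2, Pogk and Dchs1, with rho between 0.92 and 0.94. They are the extreme of 10654 genes over 12 libraries, so a high rho follows in part from the choice. Ago4, an Argonaute protein that binds small RNAs, had 1.95, 0.847, 1.02, 2.16, 2.31 and 0.915 normalized counts in MI+TRD libraries 1 to 6, against 0.903 to 1.44 in MI libraries. Rgs5, a regulator of G protein signalling found in pericytes, had 29.6, 15.0, 22.1, 35.9, 34.3 and 19.1 in MI+TRD, against 21.7 to 29.5 in MI. Both were higher in MI+TRD replicates 1, 4 and 5 than in any MI library, which their choice by likeness to Hba2 favours. For Rgs5 in replicate 1 the margin was narrow, 29.57 against 29.51. By contrast, among 10654 genes ranked by rho with Hba2, Hba-a1 stood at place 1120, Alas2 at 2070, Hbb at 4422 and Hba1 at 6422. The 5 genes with the lowest rho were Acyp2, Fopnl, Nqo2, Tiprl and Glrx, between −0.92 and −0.90. Acyp2, an acylphosphatase, had 15.9, 32.9, 28.8, 15.2, 11.1 and 27.1 in MI+TRD, against 17.5 to 29.4 in MI. The set depended on the measure: 4 of the 10 highest remained when values were taken relative to each library's median gene, and 4 when deviations from group means were used.

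**Figure D4:**
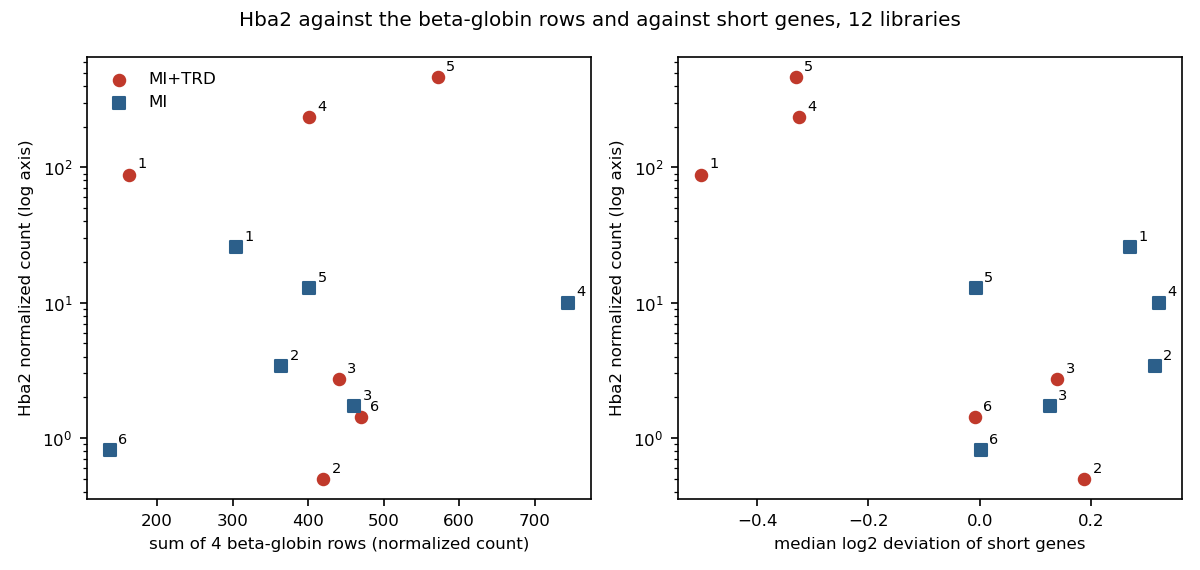
Hba2 normalized count (log axis) in each of 12 libraries at 12 weeks against the summed beta-globin rows (left) and against the median log2 deviation of short genes (right), with MI+TRD and MI marked. MI+TRD replicates 1, 4 and 5, with Hba2 at 88.3, 234 and 465, have the lowest short-gene values of the 12 libraries, and beta sums of 163, 401 and 572 within a range of 137 to 744.

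Beside the high Hba2 values, MI+TRD replicates 1, 4 and 5 had the most genes at 0 reads and the lowest short-gene deviations of all 12 libraries. Myoglobin (Mb), the oxygen-binding globin of heart muscle, had 3286, 2304 and 1631 normalized counts in these libraries, against 6637, 5753 and 5227 in MI+TRD replicates 2, 3 and 6 and 6071 to 8540 in MI libraries. The part of these library features in the Hba2 values was not tested.

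The wider pathway was described through 10 lists of genes in which no gene was called at 12 weeks by limma, edgeR or DESeq2 with adjusted p below 0.05. Of the 14 genes of haem synthesis and haem transport, all were tested. None was higher at the unadjusted threshold of 0.05 and 4 were lower, beside 2.8% and 19.1% of all genes, and the list's median log2 difference was −0.17, against −0.14 over all genes. The ubiquitous Alas1, the form of the first enzyme used outside red cells, had a median of 119 normalized counts in MI+TRD and 130.0 in MI, a log2 difference of −0.18 (SE 0.16; limma adjusted p = 0.556). Ppox, the oxidase of the step before the last, had lowest, median and highest values of 2.94, 3.74 and 3.95 in MI+TRD, against 4.14, 5.13 and 6.79 in MI. The groups did not overlap for Ppox, as for 1.59% of all genes in that direction, and the limma adjusted p was 0.133. Fech, which inserts the iron, had a median of 58.2 in MI+TRD and 63.8 in MI (limma adjusted p = 0.385). Urod, Slc25a38 and Tmem14c were the other 3 below that unadjusted threshold, with log2 differences of −0.37, −0.47 and −0.67. Tmem14c had 20.2, 18.8 and 18.1 normalized counts in MI+TRD replicates 1, 4 and 5, and 48.5, 42.2 and 44.8 in MI+TRD replicates 2, 3 and 6, against 39.3 to 59.9 in MI. Slc25a38 had 7.29, 6.33 and 7.41 in MI+TRD replicates 1, 4 and 5, and 10.7 to 11.1 in MI+TRD replicates 2, 3 and 6, against 9.99 to 18.6 in MI. Their low values were in the libraries that stood apart, whereas Ppox was at 3.95, 3.59 and 2.94 there and at 3.77, 3.90 and 3.70 in MI+TRD replicates 2, 3 and 6.

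Among the 3 measured rows of the list of other globins, Mb and Cygb were lower at an unadjusted p under 0.05, which 19.1% of all genes were, and Hba1 was not. The list had 16 symbols and a median log2 difference of −0.58. Cygb, cytoglobin of fibroblast-like cells, had 46.5, 58.3 and 71.50 as lowest, median and highest normalized counts in MI+TRD, against 71.53, 86.9 and 105.7 in MI. The groups thus did not overlap, by a narrow margin, as for 1.59% of all genes tested in that direction. The log2 difference of Cygb was −0.58 (SE 0.14, limma adjusted p = 0.133). Mb had a log2 difference of −0.93 (SE 0.32; limma adjusted p = 0.137), with its 3 lowest values in MI+TRD replicates 1, 4 and 5 as given above.

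Genes that mark red cells and their precursors were few in the table. Of 22 red cell membrane genes 9 were measured, with 0 higher and 4 lower at the unadjusted threshold, beside 2.8% and 19.1% of all genes. The list's median log2 difference was −0.20, or −0.06 relative to all genes. Ank1, which anchors band 3 to the cytoskeleton, was at −0.20 (SE 0.25; limma adjusted p = 0.690), and Aqp1, a water channel that endothelium also expresses, at −0.46 (SE 0.17; limma adjusted p = 0.155). The other 3 lower genes were Gypc, Dmtn and Cd59. Of 16 erythroid regulators 6 were measured and 0 passed in either direction, with a median of −0.18, or −0.04 relative to all genes. Tal1, which blood vessels also use, was at −0.19 (SE 0.17; limma adjusted p = 0.561), and Lmo2, Ldb1 and Bcl11a lay between −0.31 and −0.17. Gata1, Klf1, Epb42, Ahsp and Hemgn were not analysed here library by library.

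Of 17 genes that stay abundant in reticulocytes 14 were measured, with 0 higher and 2 lower, beside 2.8% and 19.1% of all genes. The list's median log2 difference was −0.18, or −0.04 relative to all genes. Fbxo9 was lower at the unadjusted threshold, with 4.83, 9.23 and 12.5 as lowest, median and highest normalized counts in MI+TRD, against 13.9, 15.1 and 16.0 in MI, and a log2 difference of −0.80 (SE 0.21; limma adjusted p = 0.133). Its 3 lowest values, 7.54, 6.54 and 4.83, were in MI+TRD replicates 1, 4 and 5. MI+TRD replicates 2, 3 and 6 had 11.9, 10.9 and 12.5, still below the MI range. Every MI+TRD library thus lay below all MI libraries for Fbxo9, as for 1.59% of all genes tested. Isca1, of iron-sulphur cluster assembly, was at −0.36 (limma adjusted p = 0.150), Tfrc, the transferrin receptor, at 0.23 (limma adjusted p = 0.543), Bnip3l, which clears mitochondria, at 0.26 (limma adjusted p = 0.302) and Ube2l6 at −0.56 (limma adjusted p = 0.247). Of 16 red cell enzymes 13 were measured, with 0 higher and 5 lower, beside the same 2.8% and 19.1%. Their median was −0.21, or −0.06 relative to all genes. The antioxidant enzymes Gpx1 and Prdx2 were at −0.64 and −0.56, Blvrb at −0.61 and Ak1 at −0.32, with limma adjusted p between 0.133 and 0.173. Gpx1 had 188, 123 and 153 normalized counts in MI+TRD replicates 1, 4 and 5, and 348, 319 and 373 in MI+TRD replicates 2, 3 and 6, against 307 to 485 in MI. Prdx2 had 92.4, 77.1 and 90.2 in MI+TRD replicates 1, 4 and 5, and 170, 146 and 135 in MI+TRD replicates 2, 3 and 6, against 144 to 197 in MI. The low values of both thus lay in the libraries that stood apart. Heart muscle expresses most of these enzymes as well.

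Markers of other blood cells were set beside the globins. Of 15 platelet genes 7 were tested, with 0 higher and 1 lower, beside 2.8% and 19.1% of all genes, and a median log2 difference of −0.34. The lower gene was Gp1bb, a chain of the von Willebrand receptor, at −1.48 (SE 0.36; limma adjusted p = 0.133), while Pf4, a granule chemokine, was at −0.57 (limma adjusted p = 0.530). The summed level of the 8 measured platelet genes ranged from 34.9 to 120 in MI+TRD and from 31.3 to 93.6 in MI. Most of that sum was Thbs1, at 22.2 to 90.8 in MI+TRD and 23.1 to 71.8 in MI, so it largely follows that gene. Of 13 neutrophil genes 4 were tested with 0 in either direction and a median of 0.03, and the calprotectin genes S100a8 and S100a9 were at −0.14 and 0.14. The neutrophil sum ranged from 2.498 to 25.1 in MI+TRD and from 6.27 to 17.1 in MI. Lcn2 made up most of both MI+TRD extremes, at 2.10 in replicate 1 and 17.6 in replicate 6, and was at 3.84 to 6.93 in MI. S100a8 and S100a9 were instead highest in MI replicate 1, at 3.97 and 6.12. Of 13 T and B cell genes 4 were tested with 0 in either direction and a median of 0.06. Sums of the 5 measured T and B cell genes were 6.36 to 38.6 in MI+TRD and 6.41 to 10.97 in MI. The highest sum was in MI+TRD replicate 6, where Cd4, which rat macrophages also express, was at 32.03, and Cd163 was highest there as well, at 30.8. The part of blood content in the globin values was not tested.

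Clearance of haemoglobin and haem was covered by 12 genes, of which 10 were tested. At an unadjusted p under 0.05, limma gave 0 higher and 0 lower, beside 2.8% and 19.1% of all genes. The list's median log2 difference was −0.10, against −0.14 over all genes. Hmox1, the inducible haem oxygenase, had 4.90, 9.12 and 34.2 as lowest, median and highest normalized counts in MI+TRD and 5.96, 7.90 and 15.0 in MI, a log2 difference of 0.35 (SE 0.39; limma adjusted p = 0.643). Cd163, the macrophage receptor for haptoglobin-bound haemoglobin, was at 0.43 (SE 0.49; limma adjusted p = 0.657), and Hp, haptoglobin, at −0.39 (SE 0.35; limma adjusted p = 0.561).

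At 6 weeks values per library were not used here, and the authors' deposited table gave the least-squares mean of each group. In that table all 7 genes had a ratio of MI+TRD to MI below 1, with a median log2 ratio of −0.65, against −0.04 over 11283 genes. Hba2 had least-squares means of 28.5 in MI+TRD and 291 in MI in the authors' deposited table, a ratio of 0.0979 with the authors' p of 0.632. In the authors' deposited table Hba-a1 had 5.10 in MI+TRD and 10.6 in MI, and Hbb had 281 in MI+TRD and 347 in MI. Hbb-b1 had 53.4 in MI+TRD and 83.6 in MI, and Alas2 had 5.95 in MI+TRD and 9.92 in MI, in the authors' deposited table. Slc4a1 had 12.9 in MI+TRD and 15.6 in MI, and Bpgm 14.1 in MI+TRD and 17.6 in MI, in the authors' deposited table. None of these passed a threshold: the lowest p of the 7 was 0.248 and the lowest step-up false discovery rate 0.866 in the authors' deposited table, where 0% of all genes had such a rate below 0.05. Without values per library, the share of single libraries in the 10.2-fold lower Hba2 mean is not known.

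The direction of the Hba2 ratio was opposite at the 2 times in the authors' deposited tables, 0.0979 at 6 weeks and 14.7 at 12 weeks. For the authors' 12-week table, 5 of the 7 genes had a ratio above 1 and 2 below, beside 3693 above and 7590 below of 11283 genes. The median log2 ratio of the 7 was 0.22, against −0.16 over all genes. The 2 below were Hbb at 0.930 and Bpgm at 0.926. Slc4a1 was at 1.01 in that deposited table. Of all genes in the authors' deposited table for 12 weeks, 2.94% had a false discovery rate below 0.05 (0.0443% as higher and 2.9% as lower), and none of the 7 did. Among the genes of the lists, Fbxo9, Gp1bb, Cygb and Blvrb did, all with a lower mean in MI+TRD and rates between 0.0381 and 0.0483 in the authors' deposited table. The difference between the times was not tested, since the tables were made separately.

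**Figure D5:**
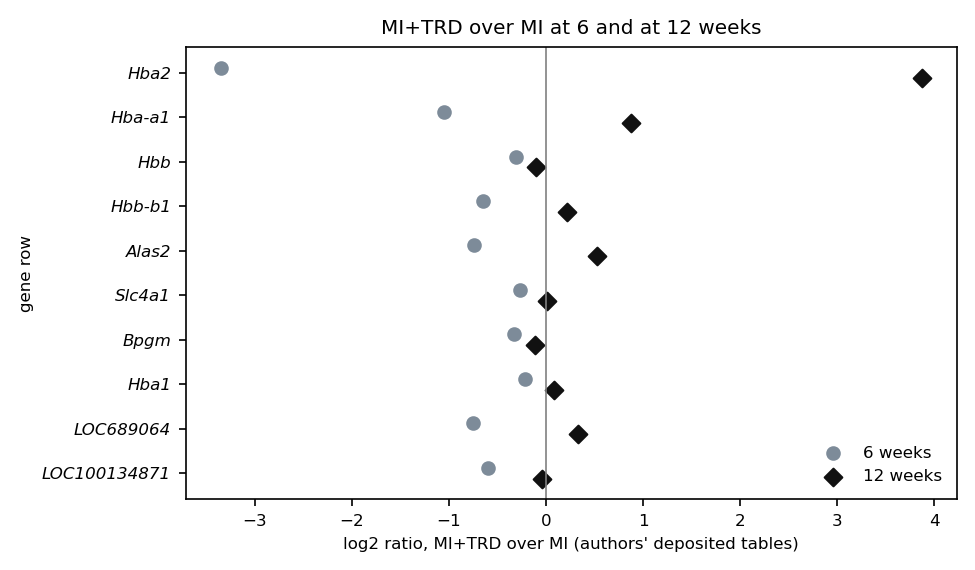
Log2 ratio of MI+TRD over MI for each gene row in the authors' deposited tables at 6 weeks (circles) and 12 weeks (diamonds), without error bars because the tables give none. All 10 rows lie below 0 at 6 weeks, as do 6432 of 11283 genes. Of the 10 rows, Hba2 lies farthest from 0 at both times.

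The authors' deposited table for 6 weeks also listed genes of red cell precursors at very low means. Ahsp, the chaperone of free alpha chains, had 0.274 in MI+TRD and 0.682 in MI, and Gata1, the main erythroid transcription factor, had 0.213 in MI+TRD and 0.340 in MI in the authors' deposited table. Hemgn had 0.225 in MI+TRD and 0.373 in MI, and Epb42, protein 4.2 of the membrane, 0.503 in MI+TRD and 0.428 in MI in the authors' deposited table. At 12 weeks the authors' deposited table gave Ahsp 0.141 in MI+TRD and 0.257 in MI, and Gata1 0.168 in MI+TRD and 0.0673 in MI. Hemgn had 0.342 in MI+TRD and 0.176 in MI, and Epb42 had 0.301 in MI+TRD and 0.210 in MI. Rhd, a blood group protein named after its values were seen, had 0.397 in MI+TRD and 0.140 in MI (authors' p of 0.0279 and false discovery rate of 0.152) in the authors' deposited table for 12 weeks. Dmtn, Aqp1 and Cd59, of the same red cell membrane list, went the other way there, at ratios of 0.543, 0.715 and 0.812. The authors' p was 0.0218, 0.0140 and 0.0245 for them, with false discovery rates between 0.107 and 0.141. Of the listed clearance genes at 6 weeks, Hmox1 had 41.8 in MI+TRD and 6.92 in MI, a ratio of 6.05 with a p of 7.43e-05 and a false discovery rate of 0.286 in the authors' deposited table. Of the lists' genes, 6 were higher at an unadjusted p below 0.05 in the authors' deposited table for 6 weeks: Hmox1, Slc2a1 at a ratio of 1.78, Thbs1 at 1.998, Cd4 at 2.45, Csf3r at 2.95 and F13a1 at 1.68. The 4 lower ones were Aqp1 at 0.702, Fbxo9 at 0.612, Flvcr2 at 0.622 and Tal1 at 0.683, and the false discovery rates of all 10 lay between 0.286 and 0.555 in the authors' deposited table. Slc2a1, Thbs1 and Flvcr2 are named because they passed that p. The 10 lists held between 3 and 14 genes each in that deposited table. The platelet list had most higher genes, 2 of 8, and no list had more than 1 lower. An unadjusted p below 0.05 was held at 6 weeks by 4.42% of all genes as higher and by 4.09% as lower in the authors' deposited table.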

How the data were processed

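Libraries of polyadenylated rat myocardial RNA were run on Illumina instruments (labels' protocols). Partek and rn6 are named in the submitters' processing notes; the counting rule, strand setting, aligner and scaling were not given in the sources used here. The deposited values per library at 12 weeks are a signal, a normalized count per gene, per the file headers. Low values were whole multiples of a library's smallest value, so reads were recovered as the value divided by that step, minus 1; of values up to 20 steps, 97.2% to 98.6% were whole to within 0.1. Comparisons by the authors were deposited as well, at 6 and 12 weeks giving p-values, step-up false discovery rates, linear ratios of MI+TRD to MI and least-squares means per group, per the file headers. Column totals of the values were 369333 to 540053, and reads per library 7197118 to 10304156.

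The analysis used limma 3.58.1 (trended eBayes, two-sided, Benjamini-Hochberg, threshold 0.05) in R 4.3.3 on log2(value + 0.208), for the 10655 genes averaging at least 0.415 deposited units after scaling by column totals; 68 were removed. Differences on this scale understate those of low genes. Relative values subtract the median of all genes. Alternatives were edgeR 4.0.16 and DESeq2 1.42.0 on recovered reads, other pseudocounts, filters and scalings, sample weights, the replicate block and libraries left out. The steps were tested on simulated data. No pair of libraries of a group matched within sampling noise (chi-square over degrees of freedom at least 14.7). Since animals are not identified in the labels, a p-value here reflects only spread among the sampled libraries, which may be technical.

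The genes described, the lists and the libraries left out were chosen with earlier results of these data known. Named besides the chosen genes were the 10 genes most like Hba2 by Spearman's rho and the 5 least like it, up to 4 genes of smallest p in each of 10 lists, and 24 genes named in any case where measured. List counts include a few genes whose own values are not reported here. Coordinates at 12 weeks are those of the deposited table (rn6), and promoters are those of RefSeq (GRCr8), aligned with Biopython 1.88.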

Additional observations from a re-analysis of the deposited data

Results flagged for a closer look

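In groups of 6 libraries, the highest or lowest value was compared with its nearest neighbour as a share of the group's range, and 4 of the 32 groups tested passed Dixon's critical value of 0.625, where chance alone gives about 1 in 20. Hba-a1 was high in MI replicate 4, at 5.35 normalized counts. Hbb was low in MI+TRD replicate 1, at 83.2 normalized counts, which is also the library with the lowest short-gene values. Bpgm was high in MI+TRD replicate 5, at 17.7 normalized counts. The Hba2 share of the alpha rows was high in MI replicate 1, at 10.4%. The high Hba2 values of MI+TRD replicates 1, 4 and 5 were not picked out in this way, since 3 of 6 libraries shared them.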

How the results depend on the processing

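The median relative log2 difference of the 7 genes was 0.41 and lay between 0.38 and 0.45 under other pseudocounts, scalings, sample weights, edgeR and DESeq2, was 0.24 without MI+TRD replicates 1, 4 and 5, and ranged from 0.25 to 0.66 when 1 library at a time was left out. Of 22 alternatives per gene, the sole one that moved a gene's difference by more than the spread within groups was Hba2 without MI+TRD replicates 1, 4 and 5, at −1.69 against 1.87. With single libraries left out, Hba2 ranged from 0.95 to 2.80, Hba-a1 from 0.40 to 0.90, Hbb from −0.06 to 0.35, Hbb-b1 from 0.21 to 0.66, Alas2 from 0.20 to 0.79, Slc4a1 from 0.20 to 0.56 and Bpgm from −0.02 to 0.14. Hba2 was at 4.02 with edgeR and 4.002 with DESeq2, which compare means of reads, and at 1.16 with sample weights. The log2 difference of the summed 4 globin genes was 0.58, with a range of 0.32 to 0.77 when 1 library was left out, 0.14 from group medians, 0.17 without MI+TRD replicates 1, 4 and 5, 0.35 for all 7 globin rows and 0.82 with equal column totals; the spread within groups was 0.76. Counts of genes called at 12 weeks were 0 in every limma alternative, with 1 library left out and with edgeR, and 18 with DESeq2; for genes of the lists the count was 0 throughout. Of the 10 genes most like Hba2, 4 remained with values relative to each library's median gene and 4 with deviations from group means; the cause was not tested.

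Replicate numbers were shared between the groups. Libraries with the same number correlated between −0.33 and 0.33 in their deviations from group means, and 3 of 6 correlated best with their own number. With 6 libraries per group, this check does not settle whether the numbers pair the libraries. With the replicate number as a block, the median relative difference was 0.41, the summed globin difference 0.58 and the number of genes called 0. Low reads limit Hba2 (11 reads in its lowest library), Hba-a1 and Alas2.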
